A study of Arabidopsis thaliana with 2 samples.

Results

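The cycling DOF factors and the ZEITLUPE module of Arabidopsis thaliana are 9 genes, taken by their gene identifiers out of the 33557 genes listed for each library. They are CDF1, CDF2, CDF3, CDF4 and CDF5, the clock gene GIGANTEA (GI), and the F-box genes FKF1, ZEITLUPE (ZTL) and LKP2. All 9 had at least 1 count in both libraries, and 8 reached the minimum of 10 counts in both that was set for comparing the libraries; FKF1 did not. The RNA came from whole Col-0 seedlings carrying the arp6-1 mutation, grown for 10 days at 17 °C in long days and harvested 15 min into an experiment started 1 h after dawn, in the arm that was not warmed but stayed at 17 °C. ARP6 is a subunit of the SWR1 complex, which places the histone variant H2A.Z in nucleosomes. The labels give 1 group with 2 libraries, replicate 1 and replicate 2, and do not say whether these came from separate cultures, so that their spread may be technical. No wild type, other temperature or other time was analysed here, and the values therefore describe levels within arp6-1 seedlings and the difference between duplicates.

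CDF proteins are DOF zinc-finger transcription factors that repress CONSTANS (CO) and FLOWERING LOCUS T (FT) and thereby delay flowering; their transcripts are known to peak around dawn. FKF1, ZTL and LKP2 each join a blue-light-sensing LOV domain to an F-box and kelch repeats, and act as the substrate-binding part of SCF ubiquitin ligases. In the afternoon of a long day FKF1 binds GI and marks CDF proteins for degradation, while ZTL, which GI stabilises, targets the clock proteins TOC1 and PRR5. GI and FKF1 transcripts are known to peak late in the day, and ZTL transcript is known to change little over the day.

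Stretches upstream of annotated gene starts are shown for FKF1, the member with the lowest level, for CDF2, a morning member that differed between the libraries, and for CDF5, which is overlapped by an antisense gene. Capitals mark the evening element AAAATATCT in FKF1, the G-box CACGTG in CDF2 and the CCA1-binding site AAAAATCT in CDF5, on either strand. The sequences are from the RefSeq assembly TAIR10.1 and read 5′ to 3′ on the strand of the gene.
FKF1, chr1:25508239-25508488, plus strand, 400 to 151 bases upstream: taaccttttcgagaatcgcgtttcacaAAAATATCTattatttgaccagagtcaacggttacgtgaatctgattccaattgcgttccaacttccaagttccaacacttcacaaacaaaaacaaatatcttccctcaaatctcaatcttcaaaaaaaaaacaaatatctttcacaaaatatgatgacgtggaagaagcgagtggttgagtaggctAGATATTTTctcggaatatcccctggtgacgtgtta
CDF2, chr5:15878448-15878697, plus strand, 250 to 1 bases upstream: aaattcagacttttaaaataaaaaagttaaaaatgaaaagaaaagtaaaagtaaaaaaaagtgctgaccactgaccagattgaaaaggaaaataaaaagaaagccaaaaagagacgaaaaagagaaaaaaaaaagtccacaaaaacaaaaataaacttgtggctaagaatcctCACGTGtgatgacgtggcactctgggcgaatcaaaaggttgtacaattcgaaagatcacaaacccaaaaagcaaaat
CDF5, chr1:26163716-26163965, minus strand, 250 to 1 bases upstream: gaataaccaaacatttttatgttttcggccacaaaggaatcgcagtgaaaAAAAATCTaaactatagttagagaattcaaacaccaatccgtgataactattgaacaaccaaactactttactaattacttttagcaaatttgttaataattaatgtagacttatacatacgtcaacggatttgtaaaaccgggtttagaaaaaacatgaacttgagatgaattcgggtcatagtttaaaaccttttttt

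Within 500 bases upstream of the annotated start, FKF1 was the only member of the 9 with an evening element. It held 2, starting 373 bases upstream on the sense strand and 186 bases upstream on the antisense strand; of 27443 protein-coding genes 4.44% had one in that window. The G-box, found in 9.35% of genes, was present in 1 member, CDF2, starting 77 bases upstream. The CCA1-binding site, found in 12.5%, was present in CDF5 and LKP2, and the LUX-binding site, searched as GATTCG or GATACG and found in 22.6%, in CDF2, CDF5 and LKP2. A match describes these letters only, and binding was not measured here.

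CDF1 and CDF3 were the most abundant members in both libraries, and FKF1 was close to absent. CDF1 (AT5G62430, chromosome 5, 25069093 to 25070934; positions here and below are those of the files, in TAIR10) had 776 counts in replicate 1 and 898 in replicate 2. Its deposited level was 39.2 and 77.3 TPM (transcript abundance corrected for transcript length and library size), 58.3 ± 26.9 (SD, n = 2). CDF1 was the highest of the 9 in both libraries and ranked at percentile 81.4 by TPM of the 19519 genes past the count minimum. CDF3 (AT3G47500, chromosome 3, 17504000 to 17506058) had 1051 and 954 counts and 33.9 and 53.4 TPM, 43.6 ± 13.8 (SD, n = 2). CDF2 (AT5G39660, chromosome 5, 15878699 to 15881044) had 474 and 519 counts and 15.1 and 29.2 TPM, 22.1 ± 10.0 (SD, n = 2). All 3 had their higher level in replicate 2, and CDF1 stood 2.60 and 2.65 times above CDF2 in replicates 1 and 2.

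The remaining CDF genes were at the low end of detection. CDF4 (AT2G34140, chromosome 2, 14413758 to 14414765) had 10 and 12 counts, with exact 95% Poisson intervals of 4.80 to 18.4 and 6.20 to 21.0 that cover counting error only. Its level was 0.794 and 1.62 TPM. CDF5 (AT1G69570, chromosome 1, 26161528 to 26163496) had 21 and 22 counts and 2.60 and 3.95 TPM. Both genes were lower than CDF1, CDF2 and CDF3 in each library, and CDF1 exceeded CDF4 49.4-fold and 47.8-fold in TPM.

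The F-box genes ran from a moderate level to nearly none. ZTL (AT5G57360, chromosome 5, 23241427 to 23244590) had 1212 and 840 counts and 29.9 and 36.0 TPM, 32.9 ± 4.33 (SD, n = 2). LKP2 (AT2G18915, chromosome 2, 8194572 to 8197483), its closest relative, had 355 and 215 counts and 10.0 and 10.6 TPM, so that the libraries differed little. FKF1 (AT1G68050, chromosome 1, 25508676 to 25510889) had 6 counts in replicate 1 and 2 in replicate 2, with Poisson intervals of 2.20 to 13.1 and 0.242 to 7.22. The deposited level of FKF1 was 0.130 and 0.0881 TPM. ZTL was 229-fold and 408-fold above FKF1 in replicates 1 and 2, ratios that rest on those few FKF1 counts.

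GI (AT1G22770, chromosome 1, 8061844 to 8067716), the partner of FKF1 and ZTL, had 1605 and 769 counts. Its level was 24.5 and 19.7 TPM, 22.1 ± 3.40 (SD, n = 2), and it was above FKF1 by 188-fold and 223-fold. GI therefore lay at percentile 57.9 of the tested genes, close to the middle of the range, where the median gene had 16.8 TPM. It was one of 2 members, with FKF1, whose TPM was lower in replicate 2.

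In the order of mean level, CDF1 was followed by CDF3, ZTL, CDF2, GI, LKP2, CDF5, CDF4 and FKF1. The values of neighbours overlapped between the libraries for CDF1 and CDF3, for CDF3 and ZTL, and for CDF2 and GI, so that these pairs did not differ beyond their spread, although CDF1 was above CDF3 and CDF3 above ZTL within each library. CDF2 was 0.615 times GI in replicate 1 and 1.48 times GI in replicate 2. The other 5 neighbouring pairs did not overlap; the closest was ZTL above CDF2, with a lowest ZTL value of 29.9 TPM and a highest CDF2 value of 29.2 TPM. With TPM computed from the counts and exon lengths, CDF3 passed CDF1 in replicate 1, at 46.1 against 45.3 TPM. CDF5, with 0.907 and 1.58 computed TPM, overlapped CDF4, with 0.761 and 1.52. By mean computed TPM, GI passed CDF2, at 27.9 against 23.0. The median log2(TPM + 1) of the CDF genes exceeded the mean of GI and FKF1 by 1.58 in replicate 1 and 2.67 in replicate 2 (2.13 ± 0.77, n = 2). That median was the value of CDF2 in each library, and the mean was lowered by FKF1, with 0.130 and 0.0881 TPM. Against GI alone, CDF2 was lower in replicate 1 and higher in replicate 2.

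**Figure D1:**
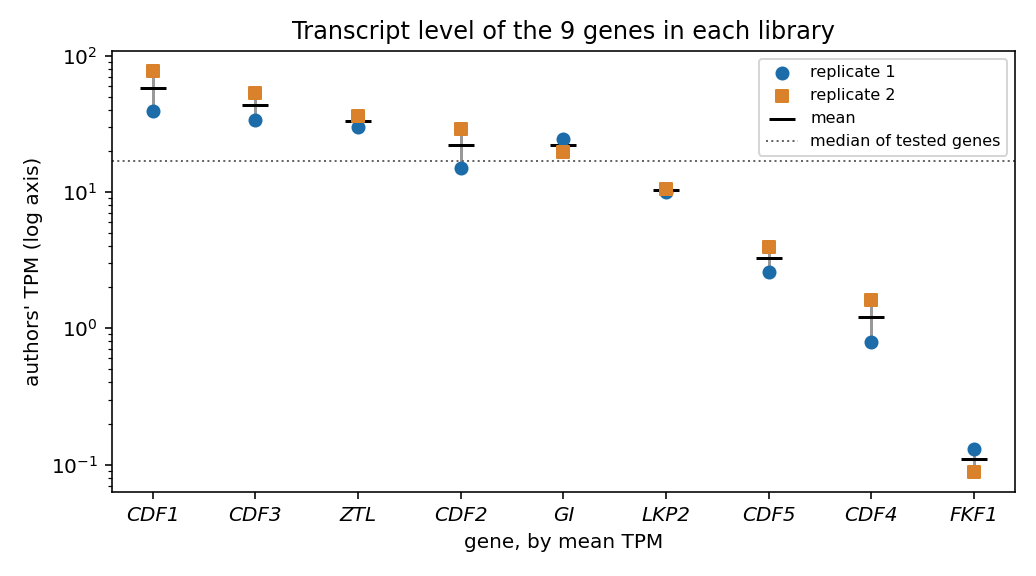
Deposited TPM on a log axis for each of the 9 genes, ordered by mean, with circles for replicate 1, squares for replicate 2, a dash for the mean, a grey line between the libraries and a dotted line at the median of the 19519 tested genes. CDF1 tops the order at 39.2 and 77.3 TPM and FKF1 ends it at 0.130 and 0.0881 TPM.

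CDF1, CDF2 and CDF3 held similar shares of the summed TPM of CDF1 to CDF5 in both libraries, although the sum itself differed. The sum covers these 5 members only and leaves out the other DOF genes described below. Summed over the 5 CDF genes, TPM was 91.6 in replicate 1 and 165 in replicate 2, a ratio of 1.81. CDF1 made 42.8% and 46.7% of that sum, CDF3 37.0% and 32.3%, and CDF2 16.4% and 17.7%. CDF5 and CDF4 together filled the rest, with CDF5 at 2.84% and 2.39% and CDF4 at 0.867% and 0.978%. With TPM computed from the counts, the mean share of CDF5 was 0.832% in place of 2.61%, close to that of CDF4 at 0.748%. Summed over the 3 F-box genes, TPM was 40.0 and 46.7, a ratio of 1.17. ZTL made 74.7% and 77.1% of it, LKP2 25.0% and 22.7%, and FKF1 0.326% and 0.189%.

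**Figure D2:**
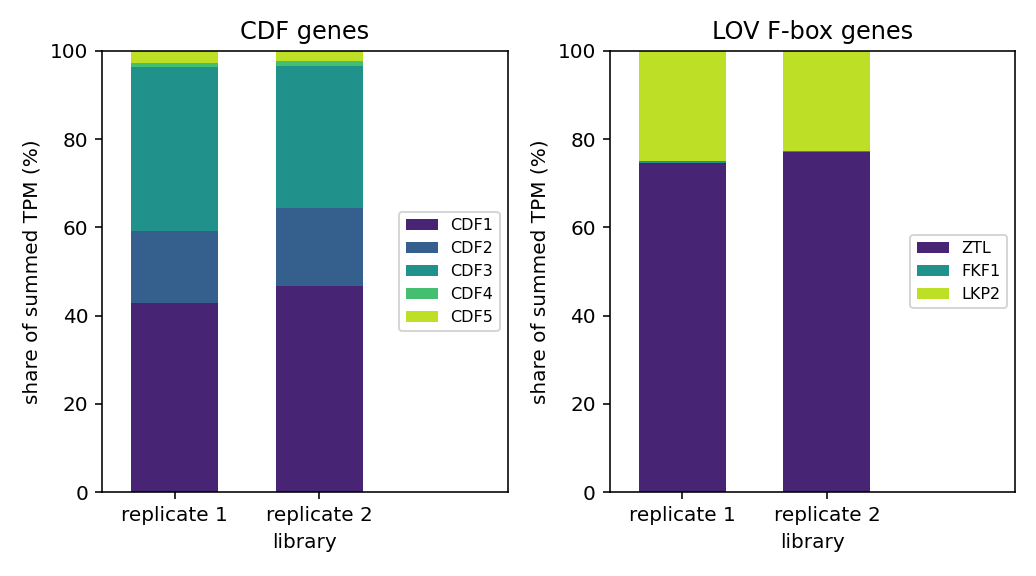
Share of summed TPM, in percent, held by each CDF gene (left) and each LOV F-box gene (right), with 1 stacked bar per library. CDF1 and CDF3 fill most of the CDF bars and ZTL holds 74.7% and 77.1% of the F-box bars, with FKF1 too small to see.

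CDF5 shares exon bases with an antisense gene, and how reads were assigned to either gene is not known. AT1G69572, known as FLORE, is a long non-coding RNA that is known to oscillate in antiphase to CDF5; in the TAIR10.1 annotation 1154 of its 1155 exon bases lie opposite exon bases of CDF5, and they cover 59.9% of the 1928 exon bases of CDF5. FLORE was listed with 0 counts in both libraries but with 14.5 and 17.7 TPM, which was 5.58 and 4.49 times the TPM of CDF5. For CDF5, the ratio of CPM (counts scaled to library size) to the deposited FPKM (the same corrected for length) corresponded to 25.0% and 29.6% of its exon length in replicates 1 and 2. For the other 8 members it was 68.6% to 127% and 69.3% to 107%, and the median gene had 82.6% and 83.4%. Among 191 genes with 0 counts and at least 1 TPM in both libraries, 160 (83.8%) overlapped another gene in the files. Of all 33557 genes in the files, 4249 did. The labels name both a stranded and an unstranded library kit without saying which library used which, and without strand, reads from the shared bases cannot be assigned to CDF5 or FLORE. The 774 exon bases of CDF5 outside FLORE (40.1%) are free of this, but the files give no count for them alone, so that the values of both genes are uncertain.

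**Figure D3:**
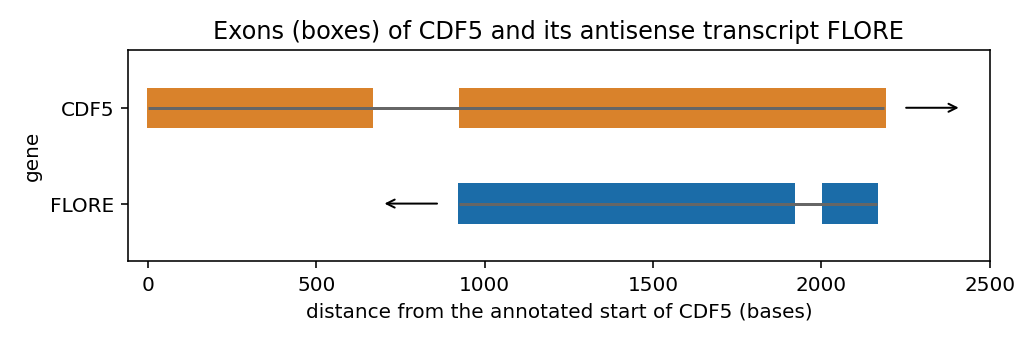
Exons of CDF5 (upper row) and of FLORE (lower row) in the TAIR10.1 annotation, drawn to scale by distance in bases from the annotated start of CDF5, with arrows for the direction of transcription. The FLORE exons lie opposite the second exon of CDF5, sharing 1154 exon bases.

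LKP2 also has an antisense neighbour, AT2G18917, which was listed with 0 counts and 3.88 and 4.86 TPM. The 2 genes share 370 exon bases, 15.8% of the exon length of LKP2, so its level carries the same uncertainty to a smaller extent. The span of no other member overlaps another gene in the files; in the TAIR10.1 annotation, FKF1 also overlaps AT1G68060.

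CDF1, CDF2 and CDF3 were higher in replicate 2, ZTL was slightly higher, and GI was lower. The libraries were compared gene by gene with a two-sided exact binomial test on the counts, with library sizes scaled by TMM in edgeR and Benjamini-Hochberg adjustment over all 19519 tested genes; it covers counting error only and compares these libraries, not conditions. Of the 8 tested members 4 were called higher in replicate 2 and 1 lower. Among all tested genes 63.8% were called, 31.9% higher and 31.9% lower, so that a share of 62.5% of tested members called is near the background and is not a result about the members. The median log2 difference was 0.71 over the 8 tested members and -0.0047 over all tested genes.

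With a prior count of 2 added, CDF1 had the largest difference, 1.98-fold (log2 difference 0.99, exact binomial test, adjusted p = 4.7e-43). Its 95% counting interval was 0.85 to 1.13. The intervals belong to the ratio of scaled counts without that prior count. The CDF1 difference lay at percentile 91.1 of the signed differences of all tested genes. Thus 8.91% of genes were higher in replicate 2 by more. CDF2 was 1.87-fold higher (log2 0.90, interval 0.73 to 1.09) and CDF3 1.55-fold higher (log2 0.64, interval 0.51 to 0.77). CDF4 and CDF5 had log2 differences of 0.88 and 0.77 that did not pass. Their intervals of -0.30 to 2.41 and -0.09 to 1.78 were wide because of their few counts. Without the prior count, the log2 ratios of CDF4 and CDF5 were 1.04 and 0.84, and that of CDF1 was 0.99. All 5 CDF genes among the members thus had a higher value in replicate 2, of which 3 passed the test. Of the tested DOF genes other than the members, 5 were called higher and 4 lower.

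Among the other genes, ZTL was 1.19-fold higher in replicate 2 (log2 0.25, interval 0.12 to 0.38; exact binomial test, adjusted p = 0.00033). LKP2 had a log2 difference of 0.05, with an interval of -0.20 to 0.30, and did not pass. GI was 1.22-fold lower (log2 -0.28, interval -0.41 to -0.16; exact binomial test, adjusted p = 1.6e-05). FKF1 was not tested; its 6 and 2 counts give a log2 ratio of -0.81 with an interval of -4.15 to 1.68. No member passed the edgeR exact test with the dispersion common to all genes, a coefficient of variation of 38.8%. Of tested genes 0.866% passed it, and the smallest unadjusted p of a member in that test was 0.23. That dispersion was estimated from the differences between these same libraries, so their typical difference is built into it. Few calls were thus set in advance, and no conclusion is drawn from 0 calls in this test here or below. With at least a 2-fold difference added to the binomial test, 0 members passed, against 16.9% of tested genes in either direction and 8.7% higher. The log2 differences of all 8 tested members lay inside the range of -1.57 to 1.91 that held the central 95% of tested genes.

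**Figure D4:**
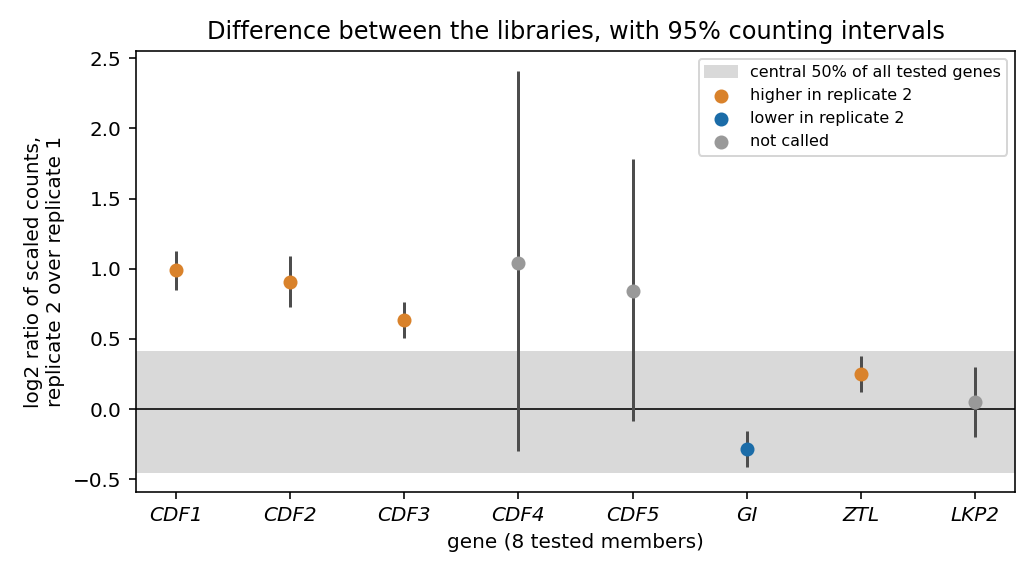
Log2 ratio of scaled counts, replicate 2 over replicate 1, for the 8 tested members, with vertical lines for the 95% counting intervals and a grey band for the central 50% of all tested genes. The points of CDF1 to CDF5 all lie above the band, with CDF4 highest, and GI and ZTL lie inside it and off 0. The intervals of CDF4 and CDF5 are wide and reach below 0.

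Phloem and root markers also differed between the libraries, whereas the mesophyll genes differed little. SUC2, a sucrose carrier of phloem companion cells, the cells in which the CDF and CO genes are known to act, had 64.4 and 176 TPM, 2.64-fold higher in replicate 2. CO itself was lower in replicate 2 (log2 -0.76). The 3 root markers were all lower in replicate 2, with CASP1 of the endodermis at 42.9 and 15.6 TPM, EXPA7 of root hairs at 17.7 and 4.20 TPM, and TIP2;3 at 24.6 and 17.2 TPM. The span of CASP1 overlaps another gene in the files. No tested marker passed the edgeR exact test with the common dispersion, where the smallest adjusted p was 0.30, for EXPA7. The mesophyll genes RBCS1A and LHCB1.3 differed by 1.05-fold and 1.03-fold, and stood at 4550 and 4937 TPM and at 3541 and 3930 TPM. The seed storage genes CRA1 and 2S3 had 0 or 1 count in each library. The part of these markers in the differences of the CDF genes and GI was not tested, and fewer cells of a type and less RNA per cell cannot be told apart in whole seedlings. Replicate 1 held 20249142 counts and replicate 2 held 12410991. ARP6, the mutated gene, had 7 counts in each library and 0.339 and 0.560 TPM, in a span that overlaps another gene.

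CO and FT, the targets of the CDF proteins, were at low levels. CO, the activator of FT, had 164 and 56 counts and 6.58 and 3.69 TPM, and was lower in replicate 2 (log2 -0.76, interval -1.24 to -0.33). FT, the mobile flowering signal, had 33 and 13 counts and 1.95 and 1.81 TPM and did not pass (interval -1.62 to 0.40). Its relative TSF, the lowest gene of the list, had 13 counts in replicate 1 and 0 in replicate 2, where up to 3 counts (0.242 CPM) are allowed. Of 17 tested genes in this list, which adds the bHLH activators of CO, the TOPLESS co-repressors and the COP1, SPA and HOS1 proteins that limit CO protein, 10 were higher in replicate 2 and 3 lower, with a median log2 difference of 0.36. That is 76.5% called, against 63.8% of all tested genes, and 0 passed with the edgeR common dispersion. The median level of the 17 was 29.1 TPM, against 16.8 TPM over all tested genes. The largest differences were those of FBH3, a bHLH activator of CO, with 25.0 and 97.8 TPM (3.84-fold), and of SPA4 with 29.9 and 56.7 TPM (1.94-fold). The highest mean was that of SPA3, at 67.3 and 86.0 TPM, and FBH3 was above it in replicate 2. The spans of SPA3 and SPA4 overlap other genes in the files.

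Genes for the ubiquitin ligase and for the partners of GI and ZTL ranged from 8.65 to 255 TPM by mean. All 10 passed the binomial test, against 63.8% of all tested genes. Of the 10, 7 were higher in replicate 2 and 3 lower, with a median log2 difference of 0.31. With the edgeR common dispersion 0 passed. The median level of the 10 was 84.2 TPM, against 16.8 TPM over all tested genes, and more counts make a call more likely. ASK1, the SKP1-like adaptor that binds F-box proteins, had the highest mean of deposited TPM, with 211 and 298 TPM, and HSP90.2 and HSP90.3 were above it in replicate 1 and, in TPM computed from the counts, in both libraries. The 3 lower genes were HSP90.2, HSP90.3 and HSP90.4, copies of the chaperone that acts with GI on ZTL; HSP90.2 had 303 and 205 TPM. How reads were split among these closely related copies is uncertain. HSP90.1, the heat-inducible copy, was the lowest of the list at 7.69 and 9.62 TPM. UBP13, a ubiquitin protease that is recruited by GI, was 1.49-fold higher, at 32.4 and 48.0 TPM.

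In the list of ZTL substrates and clock repressors, 4 of 8 were higher in replicate 2, 1 was lower and 3 did not pass. The median log2 difference was 0.37. The share called, 62.5%, was near the 63.8% of all tested genes. LHY, a morning repressor of evening genes, was the highest at 388 and 424 TPM. CCA1, its partner, had 181 and 294 TPM and was 1.71-fold higher. PRR7, a daytime repressor of CDF1, was 2.73-fold higher, with 8.14 and 21.8 TPM. TOC1 and PRR5, the substrates of ZTL, had 13.0 and 14.4 TPM and 1.51 and 1.72 TPM, and did not pass. PRR3, which shields TOC1 from ZTL, was the lowest at 0.776 and 0.972 TPM.

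Within the DOF family, CDF1 and CDF3 ranked 2nd and 3rd by mean TPM among the 35 genes that the annotation gives as DOF genes, CDF2 8th, CDF5 26th and CDF4 28th. DOF1 (AT1G51700) was the only DOF gene with a mean above that of CDF1, at 98.0 and 238 TPM, and was 2.33-fold higher in replicate 2. AT1G26790 ranked next after CDF3 by mean, with 41.2 and 24.0 TPM, above CDF1 in replicate 1 and below it in replicate 2. It was lower in replicate 2 (log2 -0.80, interval -1.01 to -0.61), the opposite direction to CDF1, CDF2 and CDF3. DOF2 (AT3G21270) had 17.3 and 44.0 TPM and was 2.44-fold higher. Of the 30 DOF genes other than the members, 7 had a mean below 1 TPM, and 4 of these had 0 counts in both libraries (ATDOF4.2, DOF4.3, DOF4.4 and DOF4.5). Of 23 tested, 5 were higher, 4 lower and 14 did not pass, with a median log2 difference of -0.07. The share called was 39.1%, against 63.8% of all tested genes. The median level of these 23 was 8.94 TPM, against 16.8 TPM over all tested genes, and fewer counts make a call less likely.

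**Figure D5:**
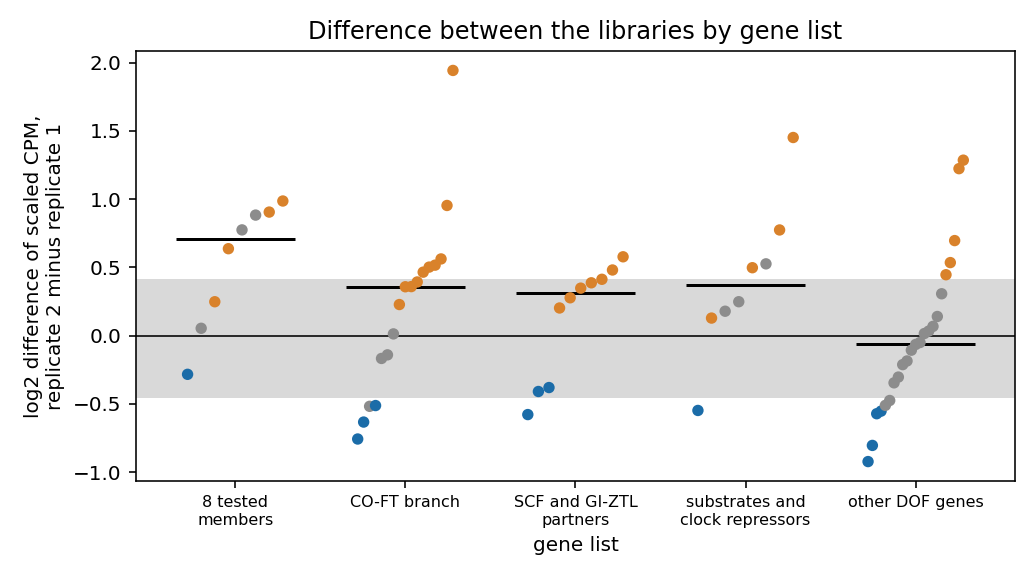
Log2 difference of scaled CPM, replicate 2 minus replicate 1, for each tested gene of the members and of the 4 lists, with orange for higher, blue for lower and grey for not called, a black line at each median and a grey band for the central 50% of all tested genes. The median of the members is 0.71, above those of the lists, which run from -0.07 to 0.37.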

How the data were processed

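Total RNA of arp6-1 seedlings was sequenced in duplicate after TruSeq preparation on a HiSeq2000, per the labels' protocols. FastQC, Trimmomatic, TopHat, Picard and the build TAIR10 are named in the submitters' processing notes, without roles; how reads were counted, and whether by strand, is not given in the sources used here. The tables hold raw counts per gene, deposited without normalization, FPKM made by the authors, and the authors' TPM, which equalled FPKM rescaled to a common sum. Deposited start positions were read as 0-based, since adding 1 made 14666 of 32810 matched genes begin as in the TAIR10.1 annotation, against 134 without, and are printed 1-based.

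Levels are the deposited TPM. An alternative TPM was computed from counts and summed exon lengths of TAIR10.1, for which 755 genes had no length. The 19519 genes that reached 10 counts in each library were compared with exact conditional binomial tests (scipy 1.17.1), with TMM scaling (edgeR 4.0.16, R 4.3.3; factors 1.02 and 0.976), a prior count of 2 for log2 differences, Clopper-Pearson 95% intervals and an adjusted threshold of 0.05. Intervals and floors cover counting error only, as PCR copies were not told apart by molecular identifiers. The test was checked on simulated counts.

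The members, the 4 lists and the rule for named genes were chosen with earlier results of these data known. Named were the members, ARP6, FLORE, the markers, the highest and lowest gene of each list and up to 2 called genes with the largest fold, and the 3 highest other DOF genes; CO, FT, TOC1, PRR5, HSP90.3, HSP90.4, AT2G18917 and AT1G68060 were added after their values were seen. The rule for DOF genes also matched ORG4 and AT5G23040, which are no DOF genes and were left out. The alternatives tried were DESeq2 1.42.0 size factors, total counts, other count minimums, a 2-fold minimum, the edgeR exact test, computed TPM, raw counts for shares, and a pseudocount of 0.1.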

Additional observations from a re-analysis of the deposited data

How the results depend on the processing

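No paired analysis was possible because the labels give 1 group of 2 libraries, and leaving out a library leaves no comparison between libraries. The counts of 4 members higher and 1 lower stayed with size factors from DESeq2, total counts, no count minimum and a minimum of 50 counts. With at least a 2-fold difference required, 0 members were higher and 0 lower. The same held for the edgeR exact test with the common dispersion, which also called 0 genes either way in the 4 lists. The dispersion of that test came from these same libraries, so few calls were built in. With the 2-fold minimum the CO-FT list kept 1 higher and 0 lower, the ligase and partner list 0 and 0, the substrate and clock list 1 and 0 and the other DOF genes 2 and 0. With total counts the CO-FT list had 5 lower genes in place of 3. LKP2 turned from a log2 difference of 0.05 to -0.017 with total counts, and passed under neither.

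The share of CDF1 was 44.8% ± 2.76 (n = 2), between 42.8% and 46.7% with either library alone, and 35.3% in raw counts, which are not corrected for length. The share of ZTL was 75.9% ± 1.73, between 74.7% and 77.1% with either library alone, and 78.3% in raw counts. The level difference between the CDF genes and GI with FKF1 was 2.13, 1.58 to 2.67 with either library alone, and 3.30 with a pseudocount of 0.1. With TPM computed from counts CDF5 fell from 3.27 to 1.25 TPM and FKF1 stood at 0.179 in place of 0.109 TPM, both over 1.5 times apart. CDF3 rose from 43.6 to 57.9 TPM, ZTL from 32.9 to 44.6, GI from 22.1 to 27.9 and LKP2 from 10.3 to 12.7. GI then stood above CDF2 by mean, which had 23.0 TPM. Depth limits FKF1, CDF4 and CDF5, whose intervals span differences of more than 2-fold.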
